A study of Homo sapiens with 2 samples.

Results

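The genes described here are the RNA methyltransferases and tRNA modification enzymes of P493-6 cells. They are the symbols that begin with TRMT, NSUN, PUS, TRUB, METTL, ELP, DUS, ADAT or ALKBH followed by a digit (with a final L after the digit for DUS), plus PUSL1. That rule took 73 of the 19096 gene symbols, which had 118 transcript rows, and each symbol stands for its row with the highest mean RPKM (read density, corrected for transcript length and library depth). P493-6 is a human B cell line, labelled as a B-cell lymphoma, in which tetracycline represses a c-Myc transgene. The high c-Myc group is 1 library from cells taken 24 h after the transgene was released, and the low c-Myc group is 1 library from cells taken at 0 h. Both were grown in RPMI medium with serum, and nothing in the labels names a second culture of either kind. Since each group is 1 library, differences have no replicate check and no test was run. The values compare these libraries only.

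tRNAs, rRNAs and mRNAs are chemically altered after transcription. In tRNA the changes fold and stabilize the molecule and tune how the anticodon reads codons. Methyltransferases add methyl groups to bases, pseudouridine synthases turn uridine into its isomer, dihydrouridine synthases reduce it, and deaminases turn adenosine into inosine. The Elongator complex begins a side chain on wobble uridines, and AlkB dioxygenases oxidize methyl groups away. c-Myc is a transcription factor known for raising genes of ribosome and protein synthesis. The label covers most but not all of the 73 genes, since several METTL genes encode enzymes that methylate proteins.

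Depth, read from the spacing of the lowest RPKM values, was near 105360000 reads at high c-Myc and 103010000 reads at low c-Myc. At those depths, an RPKM of 1 over 2 kb of transcript corresponds to some 211 reads at high c-Myc and 206 at low c-Myc. MYC itself stood at an RPKM of 2358 at high c-Myc and 836 at low c-Myc, and the deposited values do not separate transgene from endogenous reads. All 7 B cell markers looked up were present, at a summed RPKM of 6469 in the high and 15164 in the low c-Myc library, and 4 of them were at least 2-fold lower. Of the 5 T cell markers CD3D and CD8A were at 0 in both libraries, and the list summed to 1.96 at high and 12.5 at low c-Myc. CD3E stood at 1.499 at high and 8.302 at low c-Myc. CD3G stood at 0.1303 at high and 2.095 at low c-Myc, and CD2 at 0.3348 at high and 2.111 at low c-Myc. CD3E, CD3G and CD2 were each at least 2-fold lower. Of the 4 myeloid markers CD14 was under 0.1 in both, and the list summed to 35.6 at high and 151 at low c-Myc. CD68 (11.1 at high, 66.5 at low), ITGAM (19.5 at high, 56.8 at low) and LYZ (4.91 at high, 27.2 at low) were each at least 2-fold lower. The NK cell list summed to 5.20 at high and 10.6 at low c-Myc, the fibroblast and epithelial list to 13.0 at high and 19.2 at low c-Myc, and the erythroid list to 0.165 at high and 0 at low c-Myc. RPKM is relative to library depth, so a lower value need not be less RNA per cell. The marker values were not put on the per-cell scale described below. The part of these shifts in the results below was not tested, and in bulk RNA a change in cell types and a change within cells cannot be told apart.

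Of the 73 genes, 64 were measured, meaning a mean RPKM of at least 1 over both libraries. A gene was called higher or lower when the log2 ratio of high over low c-Myc, taken on RPKM + 0.5, reached 1 or -1. By that rule 26 of the 64 were higher at high c-Myc and none was lower, a split that was 22 and 3 after quantile normalization. Among all 10272 measured genes 24.9% were higher and 9.74% were lower, and both shares are the reference for the counts by role below. The median log2 ratio of the 64 genes was 0.80 (quartiles 0.12 and 1.65), and that of all measured genes was 0.22 (quartiles -0.44 and 0.997). The 64 genes summed to an RPKM of 1496 at high c-Myc and 516 at low c-Myc. Just inside the limit stood the pseudouridine synthase gene TRUB1 at 1.04, and just outside it TRMT61B, a mitochondrial tRNA methyltransferase gene, at 0.99. DUS4L, METTL12 and ADAT2 had an RPKM under 1 in the low c-Myc library and passed the level filter through the high one, so their place among the higher genes was partly set by the filter.

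**Figure D1:**
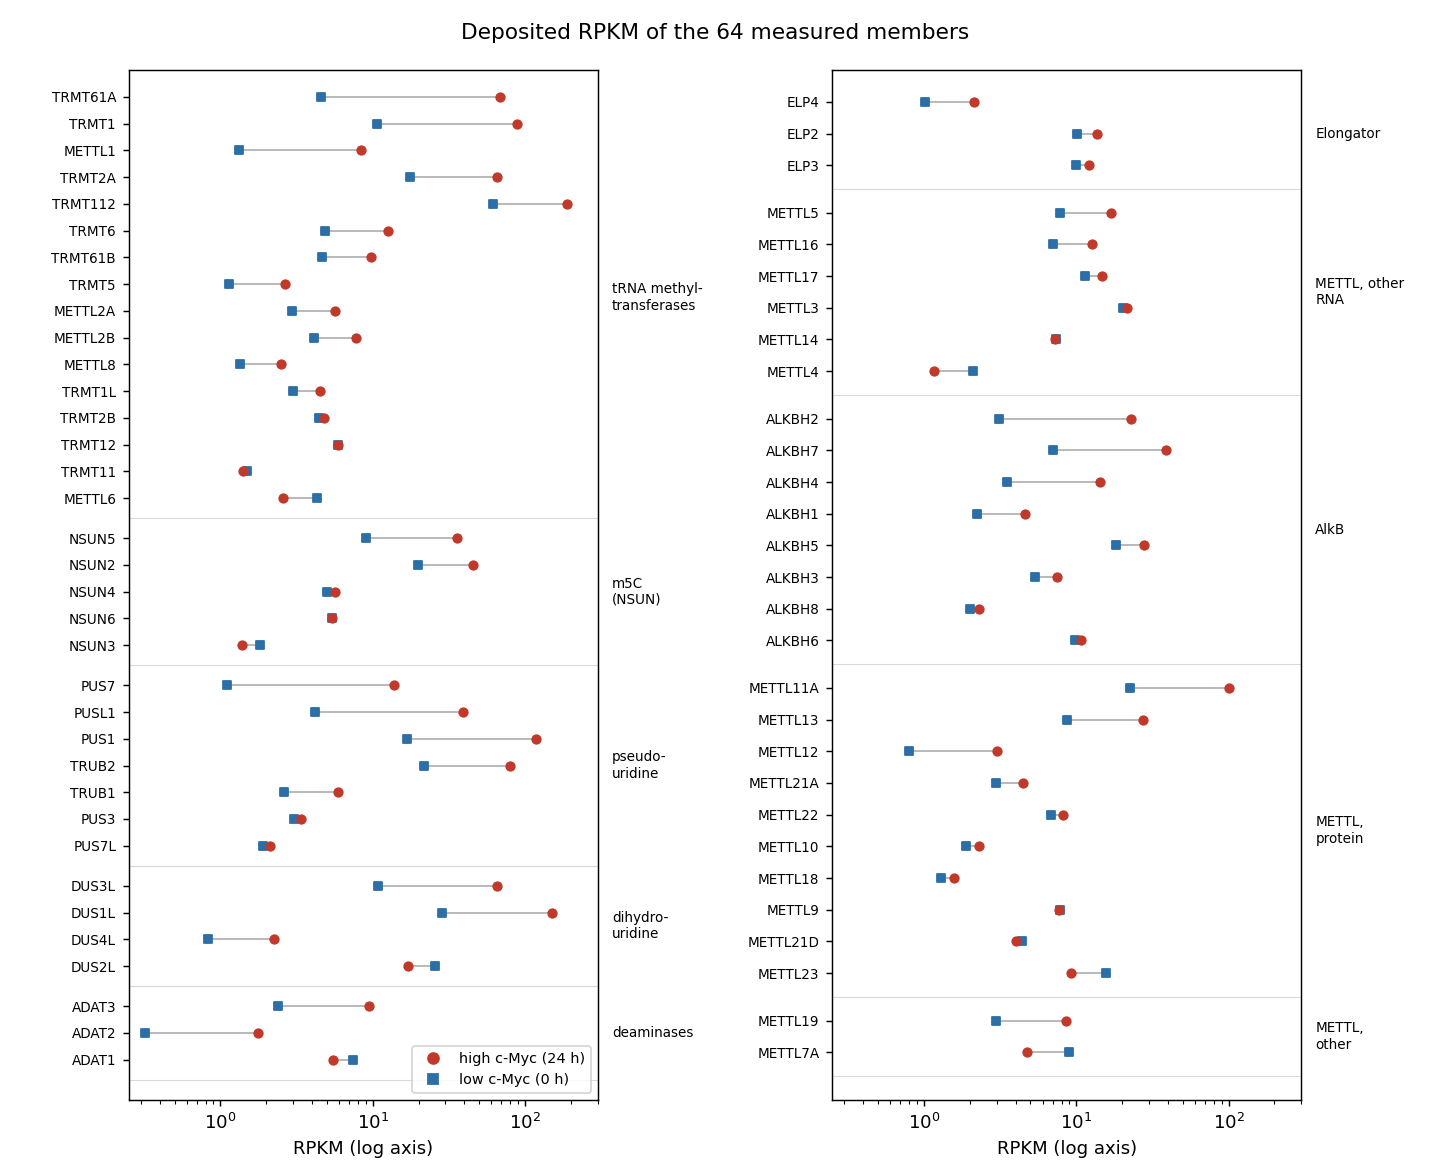
RPKM on a log axis of the 64 measured genes, grouped by role and ordered by log2 ratio within each role, in the high c-Myc library (red circles) and the low c-Myc library (blue squares), 1 library each. The longest line belongs to TRMT61A, at 68.8 in high and 4.60 in low c-Myc, and the genes at the foot of several groups, such as METTL6, DUS2L and METTL23, lie to the left in the high c-Myc library.

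tRNA methyltransferase genes held the highest ratio of all. Of 16 measured genes of this group, 6 passed the upper limit (37.5%) and none the lower one, and the median log2 ratio was 0.90. Among all measured genes 24.9% and 9.74% passed those limits. TRMT61A, the catalytic subunit of the enzyme that makes N1-methyladenosine in cytosolic tRNA, stood at an RPKM of 68.8 at high c-Myc and 4.60 at low c-Myc. That is 15.0-fold higher, with an exact binomial 95% interval of 14.2 to 15.8 that, like the intervals below, covers counting error on approximate reads only. Its log2 ratio of 3.76 ranked 70 of the 10272 measured genes. TRMT6, the RNA-binding partner of TRMT61A in the same enzyme, stood at 12.7 at high and 4.87 at low c-Myc, a 2.60-fold higher level (interval 2.43 to 2.78). In RPKM, TRMT61A was thus 5.43 times TRMT6 in the high c-Myc library and 0.944 times TRMT6 in the low one.

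TRMT1, which makes dimethylguanosine in tRNA, stood at an RPKM of 88.2 at high c-Myc and 10.7 at low c-Myc, a log2 ratio of 2.99. No matching transcript length was found for its row, so it has no counting interval. METTL1, which makes 7-methylguanosine in tRNA, stood at 8.41 at high and 1.32 at low c-Myc, a 6.39-fold higher level (interval 5.39 to 7.68). WDR4, the non-catalytic partner of METTL1 and not among the 73 genes, stood at 41.8 at high and 3.05 at low c-Myc, a 13.7-fold higher level (interval 12.5 to 15.1). METTL1 shares 20.5% of its transcript with other annotated genes. Both subunits were therefore past the limit in the same direction. TRMT2A, which makes 5-methyluridine in tRNA, stood at 65.1 at high and 17.5 at low c-Myc, a log2 ratio of 1.86. It overlaps RANBP1 on the opposite strand in 12.4% of its transcript, and RANBP1 stood at 35.3 at high and 5.11 at low c-Myc.

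TRMT112, a small protein that activates several methyltransferases of tRNA, rRNA and proteins, was the most abundant of the 73 genes in both libraries. It stood at an RPKM of 187 at high c-Myc and 61.8 at low c-Myc, a 3.03-fold higher level (interval 2.95 to 3.12). Its enzyme partners spread widely. METTL5, which methylates small-subunit rRNA, stood at 16.8 at high and 7.87 at low c-Myc, a log2 ratio of 1.05 as deposited, 0.83 after centring, 0.74 after scaling to the same summed RPKM and 0.69 after quantile normalization, the last 3 inside the limit. TRMT11, which makes N2-methylguanosine in tRNA, stood at 1.42 at high and 1.49 at low c-Myc, a log2 ratio of -0.05. ALKBH8, which finishes a wobble uridine side chain, stood at 2.28 at high and 2.01 at low c-Myc, a log2 ratio of 0.15. TRMT112 thus exceeded TRMT11 132-fold in RPKM in the high c-Myc library and 41.5-fold in the low one.

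The 10 other genes of this group lay inside the limit, and METTL19, now named TRMT44, is given with the METTL genes of less settled role. TRMT5, which makes 1-methylguanosine beside the anticodon, stood at an RPKM of 2.65 at high c-Myc and 1.13 at low c-Myc, a log2 ratio of 0.95. TRMT61B stood at 9.71 at high and 4.64 at low c-Myc. METTL2A and METTL2B, near-identical genes for 3-methylcytidine, stood at 5.67 at high and 2.94 at low c-Myc and at 7.74 at high and 4.11 at low c-Myc, with log2 ratios of 0.84 each. Since they share 46.3% of the METTL2A transcript and 51.4% of the METTL2B transcript as 31-base words, their reads cannot be told apart with confidence. METTL8, the mitochondrial enzyme for the same base, stood at 2.49 at high and 1.34 at low c-Myc, and METTL6, another enzyme for it, at 2.58 at high and 4.29 at low c-Myc. METTL6 was the lowest of the group, at 0.602 of its low c-Myc level (interval 0.526 to 0.687). TRMT1L, a paralog of TRMT1, stood at 4.48 at high and 2.98 at low c-Myc. TRMT2B, the mitochondrial 5-methyluridine enzyme, stood at 4.81 at high and 4.42 at low c-Myc, and TRMT12, which acts in wybutosine synthesis, at 5.89 at high and 5.96 at low c-Myc. The last pair thus differed little between the libraries.

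Pseudouridine synthase genes had the highest median among the groups of at least 5 measured genes. Here 5 of 7 passed the upper limit and none the lower one, and the median log2 ratio was 1.84. PUS7, which modifies tRNA and mRNA, stood at an RPKM of 13.8 at high c-Myc and 1.11 at low c-Myc, a 12.4-fold higher level (interval 11.2 to 13.8). PUSL1, a relative of PUS1 that acts in mitochondria, stood at 38.9 at high and 4.16 at low c-Myc, a 9.36-fold higher level (interval 8.57 to 10.2). PUS1, a broad tRNA pseudouridine synthase of nucleus and mitochondria, stood at 118 at high and 16.9 at low c-Myc, a 6.96-fold higher level (interval 6.79 to 7.13). All 3 log2 ratios were far above the median of all measured genes. PUSL1 overlaps ACAP3 on the opposite strand in 9.71% of its transcript, and ACAP3 stood at 38.2 at high and 10.3 at low c-Myc. TRUB2, a mitochondrial enzyme, stood at 79.2 at high and 21.7 at low c-Myc, and TRUB1, the main human enzyme for the pseudouridine of the tRNA T loop, at 5.88 at high and 2.61 at low c-Myc. TRUB2 shares 20.8% of its transcript with other annotated genes. PUS3 stood at 3.37 at high and 3.04 at low c-Myc, and PUS7L, the paralog of PUS7, at 2.11 at high and 1.89 at low c-Myc. PUS7 had 6.56 times the RPKM of PUS7L in the high c-Myc library and 0.586 times in the low one. PUS10 was not measured, at 0.508 at high and 1.02 at low c-Myc.

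**Figure D2:**
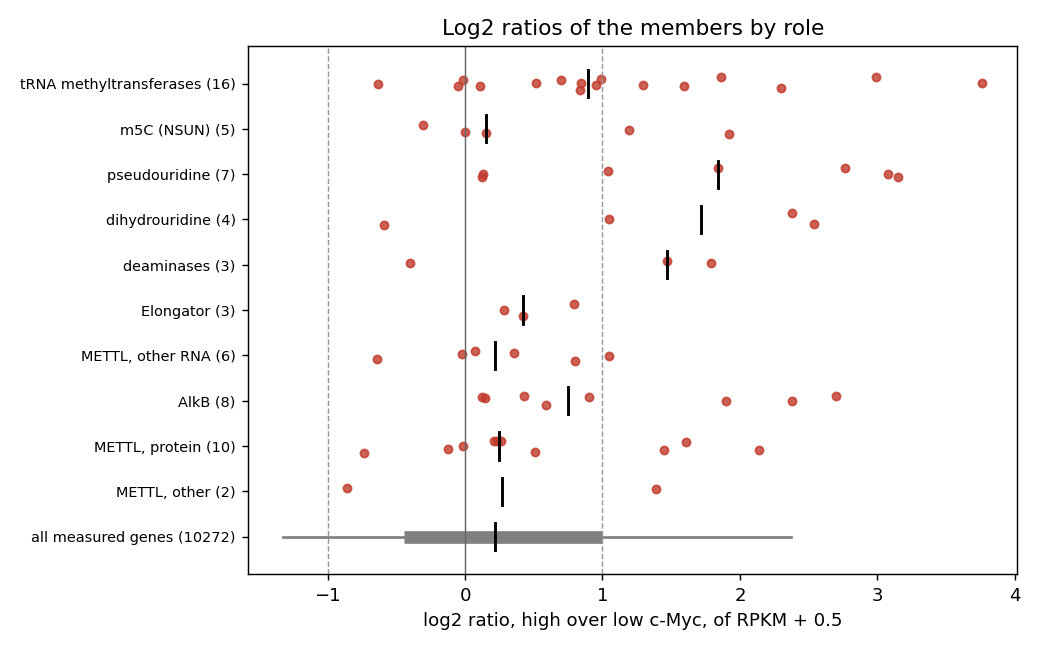
Log2 ratio of high over low c-Myc on RPKM + 0.5 for each measured gene (red points, number of genes in brackets) by role, with the median of each group as a black bar and the limits of 1 and -1 dashed. The grey box spans the quartiles of all 10272 measured genes and the grey line their 5th to 95th percentile, and the medians of the pseudouridine, dihydrouridine and deaminase groups lie to the right of the box. The deaminase median is that of 3 genes and equals ADAT2, which passed the level filter through the high c-Myc library. Corrected for GC content, the deaminase median was -0.38. The dihydrouridine median is that of 4 genes, among them DUS4L, which passed the filter in the same way.

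Dihydrouridine synthase genes split. Here 3 of 4 passed the upper limit and none the lower one. DUS1L stood at an RPKM of 150 at high c-Myc and 28.4 at low c-Myc, a 5.28-fold higher level (interval 5.14 to 5.43) that ranked it 290 at high c-Myc and 1574 at low c-Myc among the measured genes. DUS3L stood at 65.0 at high and 10.8 at low c-Myc, a 6.04-fold higher level (interval 5.78 to 6.32), and DUS4L at 2.24 at high and 0.824 at low c-Myc. DUS2L went the other way, at 17.0 at high and 25.8 at low c-Myc, or 0.658 of its low c-Myc level (interval 0.632 to 0.685), which is inside the limit. DUS2L was the third most abundant of the group in the high c-Myc library and the second in the low one. It overlaps DDX28 on the opposite strand in 16.1% of its transcript, and DDX28 stood at 17.9 at high and 3.15 at low c-Myc.

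Of the 3 adenosine deaminase genes, 2 passed the upper limit and none the lower one. ADAT2 and ADAT3 encode the catalytic and the supporting subunit of the enzyme that makes wobble inosine. ADAT2 stood at an RPKM of 1.77 at high c-Myc and 0.320 at low c-Myc, a 5.54-fold higher level (interval 4.27 to 7.27). ADAT3 stood at 9.48 at high and 2.38 at low c-Myc, a 3.98-fold higher level (interval 3.56 to 4.45). ADAT2 reached the level filter through the high c-Myc library. ADAT1, which acts on alanine tRNA and is not in that complex, stood at 5.52 at high and 7.43 at low c-Myc, or 0.742 of its low c-Myc level (interval 0.686 to 0.804). ADAT3 shares 22.7% of its transcript with SCAMP4, which stood at 71.5 at high and 55.7 at low c-Myc, and has, at 71.8% GC, the most GC-rich transcript of the 61 genes with a GC value. After the correction for GC content described below the log2 ratio of ADAT3 was -0.42 in place of 1.79, next to -0.38 for ADAT1 and 1.82 for ADAT2.

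Among the RNA cytosine-5 methyltransferase genes, 2 of 5 measured were higher (40%) and none lower, where 24.9% and 9.74% of all measured genes were. NSUN2, which methylates tRNA and other RNAs, stood at an RPKM of 45.5 at high c-Myc and 19.7 at low c-Myc, a 2.31-fold higher level (interval 2.24 to 2.39). Its log2 ratio of 1.19 was 0.97 after centring, 0.88 after scaling to the same summed RPKM and 0.61 after quantile normalization, each inside the limit. NSUN5, which methylates large-subunit rRNA, stood at 35.6 at high and 9.03 at low c-Myc, a log2 ratio of 1.92, and shares 39.0% of its transcript with the pseudogene NSUN5P1. NSUN4, which acts on mitochondrial rRNA, stood at 5.66 at high and 5.03 at low c-Myc, and NSUN6 at 5.36 at high and 5.36 at low c-Myc. NSUN3, which begins the modification of mitochondrial methionine tRNA, stood at 1.38 at high and 1.82 at low c-Myc, or 0.756 of its low c-Myc level (interval 0.669 to 0.853). The group thus held 2 genes past the limit and 3 inside it, and NSUN7 was listed at 0 in both libraries.

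The Elongator subunits ELP2, ELP3 and ELP4 lay inside the limit. ELP3, the catalytic subunit, stood at an RPKM of 12.2 at high c-Myc and 9.94 at low c-Myc (1.23-fold, interval 1.17 to 1.28). ELP2, a scaffold subunit, stood at 13.7 at high and 10.1 at low c-Myc (1.36-fold, interval 1.29 to 1.43). ELP4 stood at 2.13 at high and 1.02 at low c-Myc (2.09-fold, interval 1.92 to 2.26), below the limit once the pseudocount of 0.5 was added, and it shares 64.1% of its transcript with the opposite strand of PAX6, which was listed at 0 in both libraries. All 3 ratios were above 1, but that of ELP3 fell below 1 after scaling to the same summed RPKM and after quantile normalization.

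In deposited RPKM, the writers of N6-methyladenosine in mRNA were nearly level between the libraries. METTL3, the catalytic subunit, stood at an RPKM of 21.5 at high c-Myc and 20.4 at low c-Myc (1.05-fold, interval 1.01 to 1.10). METTL14, its RNA-binding partner, stood at 7.29 at high and 7.41 at low c-Myc (0.983-fold, interval 0.946 to 1.02). METTL3 was 2.95 times METTL14 in the high c-Myc library and 2.75 times in the low one. Per cell, as described below, METTL3 was 6.19-fold and METTL14 5.79-fold higher, where the median of all measured genes was 6.86-fold. Over the processing alternatives, the log2 ratio ran from -0.45 to 0.11 for METTL3 and from -0.32 to 0.49 for METTL14. WTAP, which brings the pair to mRNA and is not among the 73 genes, stood at 6.74 at high and 6.71 at low c-Myc. METTL16, which methylates U6 snRNA and an mRNA of methionine metabolism, stood at 12.7 at high and 7.06 at low c-Myc, METTL17, a mitochondrial ribosome assembly factor, at 14.7 at high and 11.3 at low c-Myc, and METTL4, which acts on U2 snRNA, at 1.17 at high and 2.10 at low c-Myc. METTL4 was at 0.557 of its low c-Myc level (interval 0.486 to 0.638). Of these 6 measured METTL genes with METTL5 counted, METTL5 was higher (16.7%) and none lower, where 24.9% and 9.74% of all measured genes were.

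Of 8 AlkB dioxygenase genes, 3 passed the upper limit (37.5%) and none the lower one, and the median log2 ratio was 0.75. Among all measured genes 24.9% and 9.74% passed those limits. ALKBH2, which repairs methylated bases in DNA, stood at an RPKM of 22.8 at high c-Myc and 3.10 at low c-Myc, a 7.37-fold higher level (interval 6.57 to 8.30). ALKBH7, a mitochondrial protein tied to regulated necrosis, stood at 38.6 at high and 7.01 at low c-Myc, a log2 ratio of 2.38. ALKBH4 stood at 14.4 at high and 3.50 at low c-Myc, and it shares 26.7% of its transcript with the opposite strand of ORAI2, which stood at 41.9 at high and 16.6 at low c-Myc. The 3 higher genes therefore do not include the best-known RNA demethylases of the family. ALKBH5, which removes N6-methyladenosine from mRNA, stood at 27.7 at high and 18.2 at low c-Myc, ALKBH1, which acts on tRNA, at 4.59 at high and 2.22 at low c-Myc, and ALKBH3, which acts on methylated DNA and RNA, at 7.43 at high and 5.38 at low c-Myc. ALKBH1 was 2.07-fold higher (interval 1.87 to 2.28), with a log2 ratio of 0.90 once the pseudocount of 0.5 was added, inside the limit. Its log2 ratio corrected for GC content was 1.11, past the limit. ALKBH6 stood at 10.7 at high and 9.79 at low c-Myc, with log2 ratios of 0.12 as deposited, -0.66 once corrected for GC and below 0 under each rescaling, and shares 79.3% of its sequence with an overlapping annotated transcript.

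The METTL genes that do not act on RNA, or whose role is less settled, also spread. Of 10 measured protein methyltransferase genes, 3 were higher (30%) and none lower. The share of higher genes is near the 24.9% of all measured genes, of which 9.74% were lower. METTL11A, which methylates protein N termini, stood at an RPKM of 101 at high c-Myc and 22.5 at low c-Myc, a 4.48-fold higher level (interval 4.32 to 4.65). It overlaps ASB6 on the opposite strand in 58.5% of its transcript, and ASB6 stood at 16.7 at high and 9.33 at low c-Myc. METTL13, which methylates an elongation factor of translation, stood at 27.5 at high and 8.72 at low c-Myc, and METTL12, which methylates citrate synthase, at 3.02 at high and 0.794 at low c-Myc. Both were past the limit, and METTL12 overlaps LBHD1 on the opposite strand in 25.3% of its transcript. METTL23 stood at 9.29 at high and 15.8 at low c-Myc, or 0.589 of its low c-Myc level (interval 0.547 to 0.634), and METTL21D, which methylates the ATPase VCP, at 4.01 at high and 4.42 at low c-Myc, or 0.906 of it (interval 0.780 to 1.06). The METTL23 row used had the lowest log2 ratio of its 6 rows, at -0.73, and the mean over those rows gave -0.41. METTL21A, METTL22, METTL10, METTL18 and METTL9 had log2 ratios between -0.01 and 0.51, with METTL9 lowest and METTL21A highest. METTL7A, a membrane protein of lipid droplets and the endoplasmic reticulum, had the lowest log2 ratio of the 64 genes at -0.86, with 4.75 at high and 9.01 at low c-Myc, or 0.528 of its low c-Myc level (interval 0.497 to 0.560). METTL19 stood at 8.58 at high and 2.97 at low c-Myc, a log2 ratio of 1.39.

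The 9 genes that were not measured had an RPKM of at most 1.02 in either library. NSUN7, METTL11B, METTL21C and METTL24 were listed at 0 in both libraries. METTL15 stood at 0.662 at high c-Myc and 0.518 at low c-Myc, METTL21B at 0.741 at high and 0.298 at low c-Myc, METTL7B at 0.246 at high and 0.0516 at low c-Myc and METTL20 at 0.0495 at high and 0.0921 at low c-Myc. No call was made for these genes or for PUS10.

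The promoter windows of the genes were searched for CACGTG, the E-box that c-Myc binds with MAX and that reads alike on both strands. RefSeq promoters (GRCh38.p14, 250 bases before to 50 after the annotated start) were found for 62 of the 73 genes and for 54 of the 64 measured ones. PUS1, PUSL1, METTL1, TRMT2A and NSUN2 were among those without one. The motif was in 4 of the 54 windows (7.41%), in 10.8% of 8530 measured genes matched in the same way and in 7.26% of all 35116 windows of the table. The share among the 54 genes was thus no higher than among all measured genes. It was in 3 of 21 windows of the higher genes (14.3%), against 14.3% of the 2102 windows of all higher genes, and in 1 of 33 windows of the genes between the limits (3.03%), against 9.87% of the 5622 windows of all such genes. The 3 higher genes were TRMT61A, its partner TRMT6, and PUS7. A match describes the letters and is not evidence of binding. The windows of these genes are shown because they belong to the highest ratios and to both subunits of 1 enzyme, with that of TRMT1 as a high-ratio gene without the motif, and capitals mark the motif.
TRMT61A (chr14:103528946-103529245, plus strand): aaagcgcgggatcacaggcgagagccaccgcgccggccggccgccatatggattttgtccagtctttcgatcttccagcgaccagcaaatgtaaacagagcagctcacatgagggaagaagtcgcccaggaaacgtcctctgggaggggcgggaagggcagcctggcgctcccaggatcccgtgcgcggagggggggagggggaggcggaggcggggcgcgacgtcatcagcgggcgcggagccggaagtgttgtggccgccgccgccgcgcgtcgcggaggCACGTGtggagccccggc
TRMT6 (chr20:5950484-5950783, minus strand): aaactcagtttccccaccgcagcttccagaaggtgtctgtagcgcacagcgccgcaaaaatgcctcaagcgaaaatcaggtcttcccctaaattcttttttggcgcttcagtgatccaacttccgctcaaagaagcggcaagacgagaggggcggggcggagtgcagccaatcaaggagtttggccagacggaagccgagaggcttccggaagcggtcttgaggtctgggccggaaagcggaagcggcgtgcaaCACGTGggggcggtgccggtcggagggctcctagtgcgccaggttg
PUS7 (chr7:105522222-105522521, minus strand): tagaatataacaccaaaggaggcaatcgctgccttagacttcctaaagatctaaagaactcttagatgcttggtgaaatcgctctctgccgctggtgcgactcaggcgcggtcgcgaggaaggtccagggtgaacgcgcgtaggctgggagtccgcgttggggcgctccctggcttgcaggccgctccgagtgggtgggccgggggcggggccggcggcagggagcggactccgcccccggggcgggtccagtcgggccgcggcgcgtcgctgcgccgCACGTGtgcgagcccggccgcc
TRMT1 (chr19:13116691-13116990, minus strand): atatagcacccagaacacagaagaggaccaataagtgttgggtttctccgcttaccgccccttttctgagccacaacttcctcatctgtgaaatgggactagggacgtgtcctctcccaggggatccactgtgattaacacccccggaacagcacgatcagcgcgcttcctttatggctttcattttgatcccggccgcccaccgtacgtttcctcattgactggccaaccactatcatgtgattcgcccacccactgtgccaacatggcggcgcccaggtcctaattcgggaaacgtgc
The motif begins at base 283 of the TRMT61A window, at base 255 of the TRMT6 window and at base 279 of the PUS7 window, past the 250 bases that precede the annotated start in each.

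Ratios went with the GC content of the transcripts, among these genes and among all genes. A GC value was found for 61 of the 64 genes. Across them Spearman's rho between log2 ratio and GC content was 0.47, and across the 9949 measured genes with a value it was 0.41, as a description over genes that share the same 2 libraries. GC content also went with mean RPKM among the 61 genes, with a rho of 0.74. Of the 10 genes with at least 60% GC, 9 were higher, against 53.6% of all measured genes in that range, and of the 24 genes under 45% GC, 5 were higher, against 9.64% of all. After a smooth curve of log2 ratio on GC content was subtracted, 31 of 61 genes were higher and none lower, where 21.4% and 9.12% of all 9949 genes were. TRMT2A (0.97) and ADAT3 lost their place among the higher genes, 23 remained, and 8 were added, among them TRMT61B, TRMT5, ALKBH1 and ELP4. On this scale TRMT61A stood at 2.65, PUSL1 at 1.82, DUS1L at 1.66, ALKBH7 at 1.55, DUS3L at 1.43 and NSUN5 at 1.32, while TRUB1 stood at 1.71 and PUS7, with a transcript of 41.9% GC, stood at 3.47 and was then the highest of the 61.

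**Figure D3:**
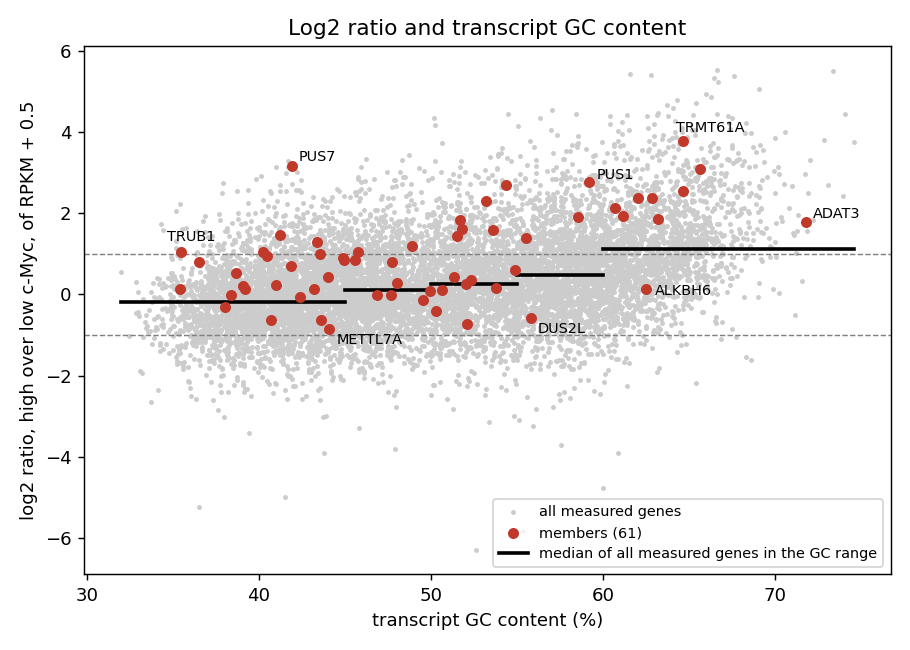
Log2 ratio of high over low c-Myc on RPKM + 0.5 against transcript GC content in percent, for all measured genes with a GC value (grey) and the 61 genes described here (red), with the median of all genes in 5 GC ranges as black lines and the limits of 1 and -1 dashed. Red points lie mostly above the black lines in every range, and ADAT3 is the red point of highest GC content.

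Transcript rows of the same gene gave like ratios. Of the measured genes, 20 had more than 1 row, and in none did the rows fall on different sides of the limit. The widest spread was in METTL23, whose 6 rows had log2 ratios from -0.73 to -0.15, followed by TRMT1L with 0.05 to 0.52 and PUS1 with 2.33 to 2.76. Of the 61 measured genes with a transcript sequence, 13 shared at least 20% of their 31-base words with transcripts of other genes on either strand, and 7 of these were among the higher genes. For reference, 26 of the 64 measured genes and 24.9% of all 10272 measured genes were higher. Shared words were not computed for all genes, and their part in the calls was not tested.

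Per cell, measured against the synthetic RNAs added by cell number, the ratios of these genes were all far above 1. The 46 synthetic RNAs that reached an RPKM of 1 at high and at low c-Myc had a median log2 ratio of -2.56 (quartiles -2.84 and -2.17), and that value was subtracted from each log2 ratio. Folds per cell therefore include the pseudocount of 0.5, unlike the plain RPKM ratios given as folds elsewhere. All 64 measured genes then passed the upper limit, where 97.1% of all measured genes were and 0.0876% were lower, so the share is near that of all genes. The median was 10.2-fold for the 64 genes and 6.86-fold for all measured genes. On the log2 scale these medians were 3.35 and 2.78, and in the authors' renormalized column they were 2.63 and 2.25. TRMT61A was 79.9-fold higher per cell, PUS7 52.3-fold and PUSL1 49.8-fold. METTL7A, the lowest, was 3.25-fold higher, and METTL23, METTL4, METTL6 and DUS2L were 3.54-fold, 3.78-fold, 3.79-fold and 3.91-fold higher. Without the pseudocount METTL4 (deposited log2 ratio -0.84) stood below METTL23 (-0.76). The genes with lower RPKM in the high c-Myc library were thus higher there per cell.

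Genes of RNA modification outside the rule were set beside these by a hand-made list. Of 77 measured genes of that list, 30 passed the upper limit and 1 the lower one, and the median log2 ratio was 0.83, where 24.9% and 9.74% of all measured genes passed those limits and the median was 0.22. Of 23 genes that modify rRNA, 18 passed the upper limit and none the lower one, and the median was 1.70. The mitochondrial rRNA methyltransferase gene MRM1 stood at an RPKM of 30.7 at high c-Myc and 1.21 at low c-Myc, a 25.3-fold higher level (interval 22.2 to 28.96). NHP2, a protein of the box H/ACA pseudouridylation particles, had a log2 ratio of 3.07, while ZCCHC4 stood at 0.20 and NOP10 at -0.12. Of 33 further genes of tRNA modification, 12 passed the upper limit and none the lower one, and the median was 0.83. GTPBP3, which acts on wobble uridines in mitochondria, stood at 57.2 at high and 4.63 at low c-Myc, a log2 ratio of 3.49 just under the 3.57 of WDR4. TPRKB, at -0.20, and TYW5, at -0.22, were the lowest of them.

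The lists of mRNA marks and caps were described in the same way, with no test of a difference between lists. For reference, 24.9% of all measured genes were higher and 9.74% lower. Of 13 genes that write, remove or read N6-methyladenosine, none was higher and none lower, with a median log2 ratio of 0.005 and a range from -0.45 for the reader YTHDC1 to 0.97 for RBM15B. YTHDF1, a reader, had the next highest at 0.73 and ZC3H13, of the writer complex, the next lowest at -0.23. RBM15B was 2.01-fold higher in plain RPKM (interval 1.96 to 2.07) and inside the limit once the pseudocount of 0.5 was added. Of 7 genes of cap methylation and capping, 1 was lower and none higher. RNGTT, the capping enzyme, stood at an RPKM of 2.61 at high c-Myc and 8.48 at low c-Myc, a log2 ratio of -1.53, and CMTR1, a cap methyltransferase listed as FTSJD2, had one of -0.87. TGS1 and MEPCE, which methylate snRNA caps, had log2 ratios of 0.92 and 0.76. ADAR, which edits adenosines in double-stranded RNA, stood at 88.3 at high and 142 at low c-Myc, a log2 ratio of -0.68, and ADARB1 was not measured.

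**Figure D4:**
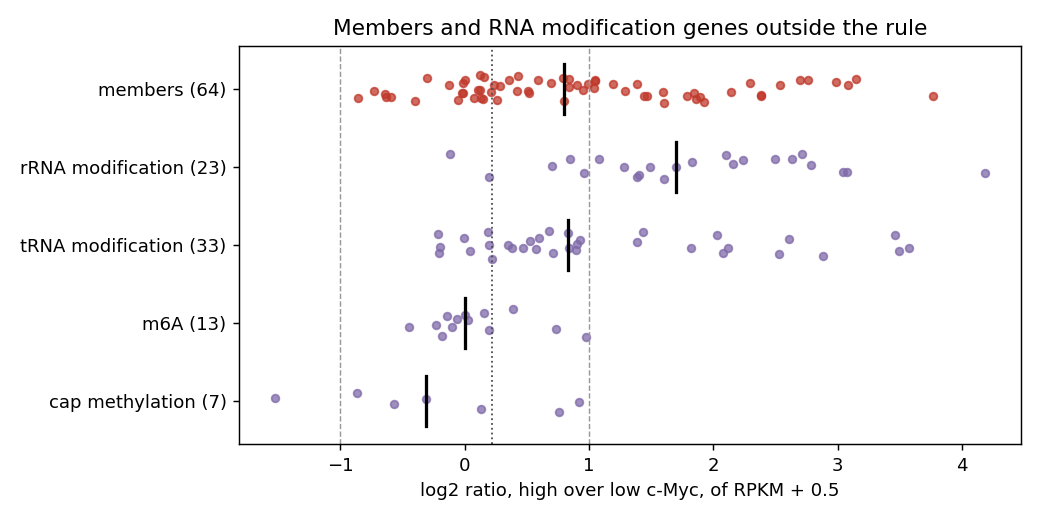
Log2 ratio of high over low c-Myc on RPKM + 0.5 for the 64 genes described here (red) and for measured RNA modification genes outside the rule (violet, number of genes in brackets), with medians as black bars, the limits of 1 and -1 dashed and the median of all measured genes dotted. The rRNA group has its median at 1.70, while no point of the N6-methyladenosine group (m6A) passes a limit.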

How the data were processed

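Per the labels' protocols, polyadenylated RNA with synthetic RNAs added by cell number was made into dUTP libraries. The submitters' processing notes name Bowtie (version not given) and the hg18 build. The sources used here do not state how reads were counted, or whether by strand. The authors deposited RPKM values per RefSeq transcript, and a further column renormalized by the synthetic RNAs in a way not stated there, used only as an alternative.

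Log2 ratios used a pseudocount of 0.5, which understates differences of weak genes. Depth came from the steps of low values: of transcripts with up to 20 reads, 46.2% (high c-Myc) and 48.9% (low c-Myc) were whole numbers to within 0.05, where chance gives 10%. Reads per gene, and the exact binomial (Clopper-Pearson) intervals on them, are approximate, since lengths, GC content and 31-base words came from GENCODE release 29 (GRCh38) transcripts paired by accession. GC values, found for 96.9% of measured genes, were used in a lowess curve of span 0.3. RPKM values are not counts and no p-value is given. The genes and lists were chosen with earlier results of these data known. The rule for full statistics took 8 genes from each end of the log2 ratios, the 4 most abundant and the subunits of complexes. Of the genes outside the rule, the direct partners and the 2 highest and 2 lowest of each list are named. Only the 2-fold call was tested on simulated data, drawn with counting error alone and no variation between cultures. The other steps were not tested in this way. Python 3.11.15, numpy 2.4.6, pandas 2.3.3, scipy 1.17.1, statsmodels 0.14.6 and matplotlib 3.10.9 were used.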

Additional observations from a re-analysis of the deposited data

How the results depend on the processing

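Counts of higher genes stayed within 1.5 times the reported ones, from 21 to 31 for the 64 measured genes and from 24 to 32 for the genes outside the rule, except that per cell a minimum mean RPKM of 5 left 41 genes, all higher. Of the 26 higher genes, 19 were called under every alternative that gave a value. Genes at least 2-fold lower numbered 1 after centring on the median of all genes, 2 after scaling to the same summed RPKM and 3 after quantile normalization, against none as deposited, and for the genes outside the rule 2, 2 and 3 against 1. These scalings moved the median of all genes by -0.22, -0.29 and -0.31. The median log2 ratio outside the rule was 0.46 after quantile normalization, against 0.83, and the per-cell median of the measured genes was 2.63 in the authors' renormalized column, against 3.35. Calls were lost in DUS4L, METTL5, NSUN2, TRUB1 and TRMT6 under at least 1 scaling or pseudocount and in TRMT2A and ADAT3 under the GC correction, where ADAT3 turned to -0.42 and ALKBH6, not called, to -0.66. The causes were not tested. Scaling changed the sign of small ratios, among them those of METTL3, ELP3 and METTL17. The genes that passed the lower limit were METTL7A, METTL23 (on the row used, the lowest of its 6) and DUS2L. No paired analysis was possible because each group had 1 library, and for the same reason none could be left out. Depth limits weak genes most, as in ADAT2, whose 5.54-fold ratio had a counting interval of 4.27 to 7.27.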

Other observations

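Further genes of the same families are listed in the tables under older symbols that the rule does not match, and were looked up after the values above were seen. C17orf81 (ELP5) stood at an RPKM of 43.3 at high c-Myc and 14.7 at low c-Myc, a log2 ratio of 1.52, past the limit that ELP2, ELP3 and ELP4 did not reach. C3orf75 (ELP6) stood at 15.8 at high and 10.7 at low c-Myc. RG9MTD1 (TRMT10C), a subunit of mitochondrial RNase P, stood at 12.2 at high and 5.35 at low c-Myc, a log2 ratio of 1.12, while its RNase P partners HSD17B10 and KIAA0391 had log2 ratios of 1.82 and 0.04. CCDC76 (TRMT13) stood at 2.47 at high and 3.31 at low c-Myc. C16orf13 (METTL26) stood at 107 at high and 14.7 at low c-Myc, with log2 ratios of 2.82 as deposited and 1.39 once corrected for GC. WBSCR27 (METTL27) had a log2 ratio of 1.18, which was -0.04 after that correction. C12orf26 (METTL25) and RRNAD1 (METTL25B) had log2 ratios of 0.42 and -0.15, and RG9MTD2 (TRMT10A), RG9MTD3 (TRMT10B) and KIAA1456 (TRMT9B) were under the minimum mean RPKM of 1.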
